A study of Mus musculus with 6 samples.

Results

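The genes described here are 37 genes of the germline and of meiosis, measured in 3 mouse embryonic stem cell lines. The members were named in advance of this account as a list, and each was represented by the probe set that carried its symbol alone and, where several did, by the one with the highest mean over the 6 arrays. All 37 members had such a probe set among the 19938 genes tested, and only Hormad1 had more than 1. The cells were chromosome transfer embryonic stem cells of the lines ♂M-1, ♂M-3 and ZM-1, with 2 biological repeats per line. All lines were cultured on gelatin, in medium with CHIR99021, which inhibits GSK3β, PD0325901, which inhibits MEK, and LIF, and total RNA was hybridised to a whole-transcript array. What the ♂M and ZM prefixes stand for is not written out in the labels, which name no genotype, strain or age, and ZM-1 is the only ZM line, so its line and its type cannot be told apart. The title of the study concerns the reprogramming capacity of the parental pronuclei.

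Germ cells use a set of genes that most other cells keep silent. Proteins with tudor domains, PIWI proteins and RNA helicases gather in perinuclear granules called nuage, where small PIWI-interacting RNAs (piRNAs) are made and directed against transposons. In meiosis, cohesin rings with germline subunits and HORMA-domain proteins build the chromosome axes, the synaptonemal complex joins homologous axes, and programmed DNA breaks are repaired by recombination. In mouse embryonic stem cells many of these genes are held down by promoter DNA methylation and by a variant Polycomb complex that contains Mga, Max and E2f6. Culture with inhibitors of MEK and GSK3 is known to lower DNA methylation.

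The values are intensities on the linear scale of the array, and differences are on the scale of log2(intensity + 1). A gene passed the test at an adjusted p under 0.05 in limma, adjusted over all 19938 genes. Of the 37 members, 20 passed in at least 1 of the 3 comparisons between lines, 11 in at least 2 and 3 in all of them, and 17 passed in none. Of all genes tested, 18.5% passed in at least 1 comparison, 7.73% in at least 2 and 0.552% in all 3. With 2 arrays per line, lines often do not overlap. The arrays of 9752 of the 19938 genes did not overlap in ♂M-1 against ZM-1, of 11462 in ♂M-3 against ZM-1 and of 10059 in ♂M-1 against ♂M-3. Among the 37 members the counts were 25, 28 and 27. The median intensity over all probe sets lay between 67.2 and 71.3 in the 6 arrays, and the lower quartile between 23.8 and 25.1. Mean intensity over the 6 arrays was above the median of all genes for 13 members and above the 75th percentile for 0. No filter on low values was applied and no detection call entered, so dim values may lie at background. Asz1, Tdrd6, Sycp2, Spo11 and Tex11 had line means below the highest lower quartile in all 3 lines, and 9 members had at least 1 such line mean. For those members only levels are given, without a fold. Defining markers of the labelled cell type were present, with Sox2, a core transcription factor of pluripotency, at 2916 ± 275 in ♂M-1 and 2933 ± 24.6 in ♂M-3, against 2906 ± 103 in ZM-1 (SD, n = 2 each). The summed intensities of the 8 pluripotency markers were 15709 to 16733 in ♂M-1 and 18085 to 18117 in ♂M-3, against 16261 to 16549 in ZM-1.

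**Figure D1:**
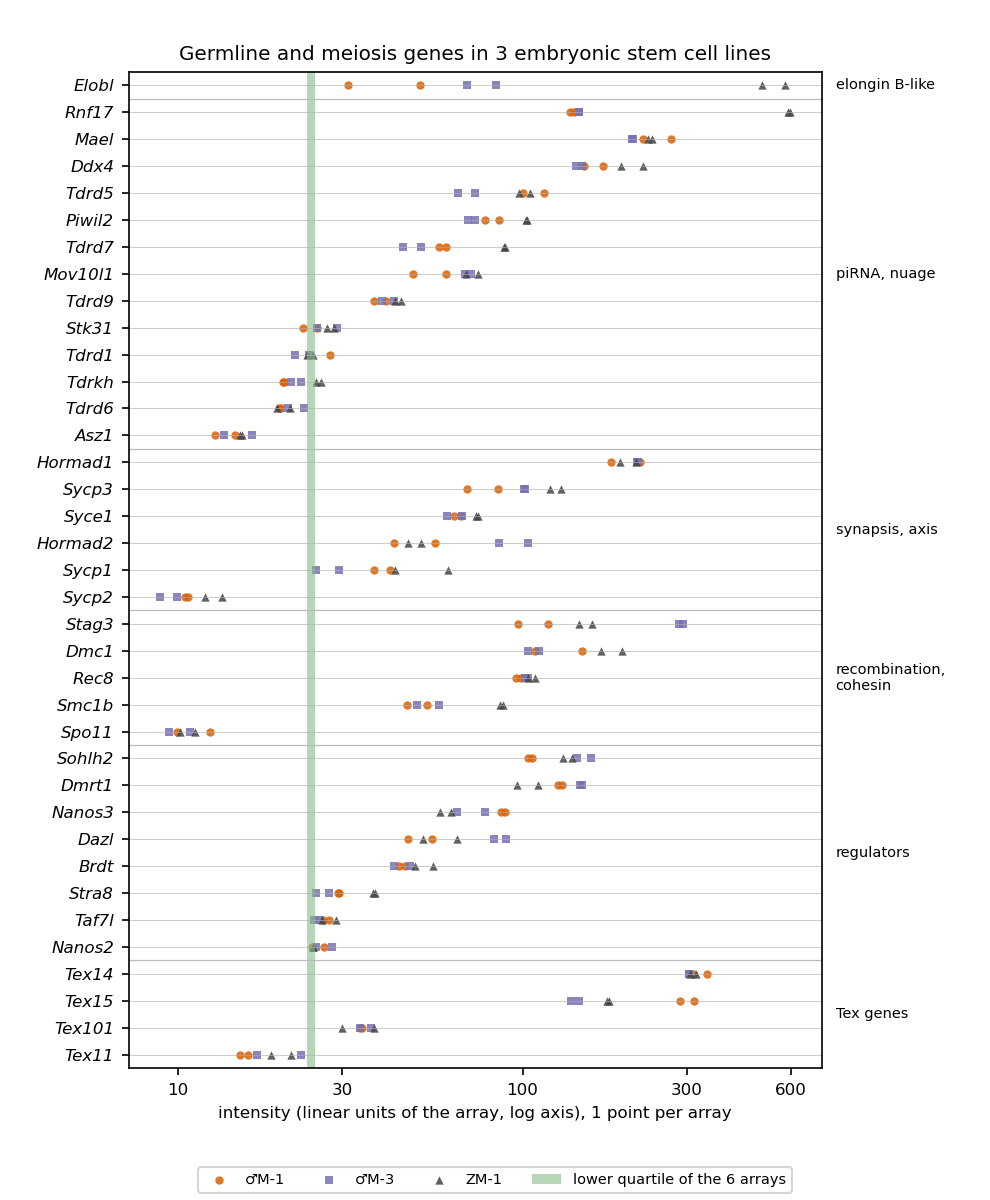
Intensity of the 37 members in each of the 6 arrays (log axis), with genes grouped by role. Circles are ♂M-1, squares ♂M-3 and triangles ZM-1, and the green band spans the lower quartiles of the 6 arrays. The ZM-1 arrays of Elobl and Rnf17 stand apart from the ♂M arrays, at 493 to 597.

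Elobl and Rnf17 were lower in both ♂M lines than in ZM-1, by 4.03-fold to 13.1-fold, and smaller differences of either sign were found among nuage, synapsis, cohesin and regulator genes. Between ♂M-1 and ZM-1, 2 members were higher and 9 lower in ♂M-1, against 1.89% higher and 2.53% lower of all genes. The median log2 difference was -0.19 for the members and -0.0082 for all genes. After median centring of the arrays, 3 members were higher and 6 lower. The count of 11 became 4 when ♂M-1 replicate 2 was left out, and 7 without ♂M-3 replicate 1, ♂M-3 replicate 2 or ZM-1 replicate 2. Between ♂M-3 and ZM-1, 4 members were higher and 12 lower in ♂M-3, against 8.66% higher and 7.2% lower of all genes. The median was -0.093 for the members and 0.0021 for all genes. Between ♂M-1 and ♂M-3, 2 members were higher and 5 lower in ♂M-1, against 3.22% higher and 3.32% lower of all genes, with medians of -0.050 and -0.017. That count of 7 fell to 4 without ♂M-1 replicate 2 or ♂M-3 replicate 2. Leaving out any array also leaves fewer arrays to estimate the spread, which the 3 lines share. A call can then be lost with its difference unchanged. In such bulk RNA, fewer cells of a type and less RNA per cell cannot be told apart. The first 2 comparisons share the ZM-1 arrays, so their counts are not independent. The members were chosen with earlier results for Elobl, Rnf17 and Tex15 known, so these shares describe the list and do not set it apart.

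**Figure D2:**
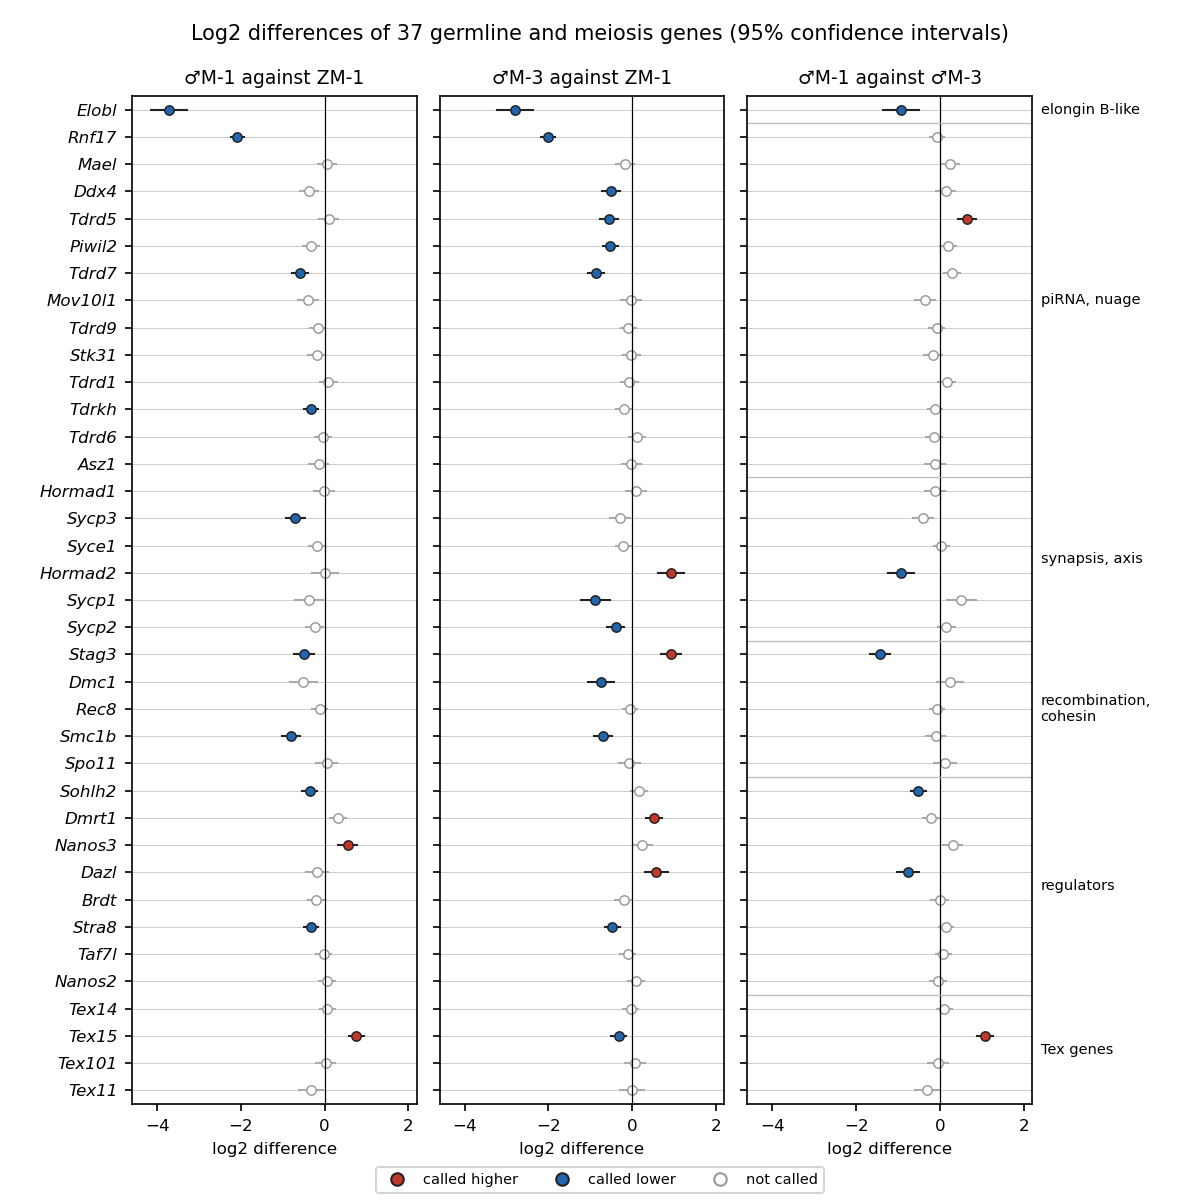
Log2 difference of each member in the 3 comparisons, first-named line minus second, with 95% confidence intervals. Red points passed the test as higher, blue points as lower, and open points did not pass. Elobl and Rnf17 lie farthest to the left in both comparisons with ZM-1, Stag3 is the lowest member and Tex15 the highest in ♂M-1 against ♂M-3.

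Elobl, named for its likeness to the elongin B gene Elob, showed the largest difference of the members. Its intensity was 50.3 and 31.3 in ♂M-1, 69.1 and 83.7 in ♂M-3, and 578 and 493 in ZM-1. Both ZM-1 arrays were far above the 4 ♂M arrays, and the ♂M-1 arrays lay below those of ♂M-3. Elobl was 13.1-fold lower in ♂M-1 relative to ZM-1 (log2 difference -3.72 ± 0.19, SE, adjusted p = 1.69e-05). With other processing choices or an array left out, that log2 difference lay between -4.05 and -3.30, so the fold is not exact. In ♂M-3, Elobl was 6.94-fold lower than in ZM-1 (-2.79 ± 0.19, adjusted p = 4.79e-05). Between ♂M-1 and ♂M-3 it differed by -0.92 ± 0.19 (adjusted p = 0.0239), a result lost on leaving out ♂M-1 replicate 2 (adjusted p = 0.121), ♂M-3 replicate 1 (0.0619) or ♂M-3 replicate 2 (0.153). Elob itself, a ubiquitously used subunit of elongin and of ubiquitin ligases, measured 5302 ± 113 in ♂M-1 and 5569 ± 55.9 in ♂M-3, against 4868 ± 85.5 in ZM-1 (SD, n = 2 each), and passed in no comparison.

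The next gene on chromosome 11 moved with Elobl. In the gene order of GRCm38.p6 its neighbour is 2210409E12Rik, annotated as a transcribed pseudogene and named here after its values were seen. That gene measured 122 and 108 in ♂M-1, 218 and 203 in ♂M-3, and 1164 and 1201 in ZM-1. The order of the 3 lines was that of Elobl, with no overlap between lines. Its log2 difference was -3.35 ± 0.087 in ♂M-1 against ZM-1 (SE, adjusted p = 4.94e-07), -2.49 ± 0.087 in ♂M-3 against ZM-1 (adjusted p = 1.02e-06) and -0.86 ± 0.087 in ♂M-1 against ♂M-3 (adjusted p = 7.89e-04). Whether the pair of probe sets shares sequence, or reads 1 transcript, was not tested. The 11 members that passed in at least 2 comparisons had 110 neighbours in all, taken as the 5 tested genes on either side. Of these, 8.18% passed in ♂M-1 against ZM-1, 20% in ♂M-3 against ZM-1 and 7.27% in ♂M-1 against ♂M-3, against 4.41%, 15.9% and 6.54% of all genes. Among the 10 neighbours of Elobl, 2210409E12Rik and Dgke were lower in ♂M-1 against ZM-1. In ♂M-3 against ZM-1, 2210409E12Rik, Coil and Dgke passed, 1 as higher and 2 as lower. Between ♂M-1 and ♂M-3, 2210409E12Rik alone passed. Among the 10 neighbours of Rnf17, the log2 differences lay between -0.13 and 0.21 in ♂M-1 against ZM-1, where 0 passed, and between -0.36 and 0.34 in ♂M-3 against ZM-1, where 3 passed.

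Promoter windows are shown for Elobl, Hormad2, Stag3 and Smc1b because, of the members that passed in at least 2 comparisons and have a single window, these had the largest differences. They hold from no to many CpG pairs, the substrate of DNA methylation. The sequences are RefSeq's for GRCm38.p6 and cover the 250 bases before the annotated start, 5′ to 3′ on the gene's strand, with CpG pairs in capitals. Elobl lies at chr11:88966932-88967181 (minus strand), Hormad2 at chr11:4441083-4441332 (minus), Stag3 at chr5:138280259-138280508 (plus) and Smc1b at chr15:85131958-85132207 (minus).
Elobl: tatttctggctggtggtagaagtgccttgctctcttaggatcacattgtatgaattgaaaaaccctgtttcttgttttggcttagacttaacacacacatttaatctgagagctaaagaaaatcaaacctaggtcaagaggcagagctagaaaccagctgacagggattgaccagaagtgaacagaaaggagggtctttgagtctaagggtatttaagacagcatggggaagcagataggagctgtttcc
Hormad2: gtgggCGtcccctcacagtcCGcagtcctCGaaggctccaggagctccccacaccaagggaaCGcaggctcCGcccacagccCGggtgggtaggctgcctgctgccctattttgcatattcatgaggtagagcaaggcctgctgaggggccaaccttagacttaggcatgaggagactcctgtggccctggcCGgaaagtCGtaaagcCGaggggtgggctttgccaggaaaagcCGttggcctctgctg
Stag3: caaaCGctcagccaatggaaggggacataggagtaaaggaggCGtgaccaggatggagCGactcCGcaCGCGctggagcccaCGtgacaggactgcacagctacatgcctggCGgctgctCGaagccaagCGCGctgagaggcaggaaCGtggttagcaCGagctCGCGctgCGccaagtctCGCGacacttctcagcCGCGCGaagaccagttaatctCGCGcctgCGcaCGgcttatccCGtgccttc
Smc1b: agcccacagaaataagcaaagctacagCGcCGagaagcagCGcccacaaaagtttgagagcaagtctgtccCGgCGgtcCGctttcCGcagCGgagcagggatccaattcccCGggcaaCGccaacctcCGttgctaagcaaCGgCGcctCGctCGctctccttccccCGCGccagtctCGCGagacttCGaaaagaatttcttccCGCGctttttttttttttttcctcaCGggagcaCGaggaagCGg
The Elobl window holds 0 CpG pairs, as do 7.87% of the 32851 windows in the table. Hormad2 holds 10, Smc1b 25 and Stag3 26, counts reached by 37.8%, 10.7% and 9.59% of all windows.

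Windows were available by symbol for 30 members, 4 of them with several starts, giving 36 windows. Dmrt1, Piwil2, Rnf17, Spo11, Tdrd6, Tex11 and Tex15 were not analysed here in this respect. The median CpG count was 15.5 over the 36 windows and 6 over all windows, with 0 as the lowest count and 40, in Tdrd5, as the highest. The E-box CACGTG, which Max-containing dimers bind, was found on either strand in 15 of the 36 windows, against 6.02% of all windows. An E2F-type motif, GCGGGA on either strand, was found in 10 of the 36, against 16.9% of all windows. Each motif itself holds a CpG pair, and the member windows hold more CpG pairs than all windows do, so these shares do not compare like windows. Genes with several starts, some of them close together, also enter more than once. By gene, 12 of the 30 members had an E-box and 9 an E2F-type motif. No E-box overlapped an E2F-type motif in a member's window. The Stag3 window has its E-box 170 bases before the start, and the Smc1b window has an E2F-type motif beginning 47 bases before it. Among the 12 members with an E-box 4 passed in at least 1 comparison, as did 12 of the 18 without one, where 18.5% of all genes did. For the E2F-type motif, 5 of 9 members with it passed and 11 of 21 without it. Taking the start with most CpG for each gene, the median count was 15.5 in the 16 members that passed and 15.5 in the 14 that did not.

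Among genes of the piRNA pathway and nuage, Rnf17 stood out. Rnf17 encodes a protein with RING and tudor domains that forms granules in male germ cells and is needed for spermatid differentiation. Its intensity was 137 and 141 in ♂M-1, 146 and 146 in ♂M-3, and 588 and 597 in ZM-1. The ♂M lines lay close together, both far below ZM-1. Rnf17 was 4.24-fold lower in ♂M-1 relative to ZM-1 (log2 difference -2.08 ± 0.072, SE, adjusted p = 1.85e-06) and 4.03-fold lower in ♂M-3 (-2.01 ± 0.072, adjusted p = 1.14e-06). Between ♂M-1 and ♂M-3 it differed by -0.071 ± 0.072 (adjusted p = 0.673).

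Tdrd7, a tudor protein of the chromatoid body, the nuage of spermatids, measured 60.2 and 57.2 in ♂M-1, 50.8 and 45.1 in ♂M-3, and 89.0 and 88.1 in ZM-1. Every ♂M array was below both ZM-1 arrays. It was 1.83-fold lower in ♂M-3 than in ZM-1 (adjusted p = 2.52e-04) and differed by -0.59 ± 0.083 on the log2 scale in ♂M-1 against ZM-1 (adjusted p = 0.00558), the second failing on leaving out ♂M-1 replicate 2 (adjusted p = 0.0690). Piwil2, the PIWI protein that binds primary piRNAs, had 85.6 and 77.9 in ♂M-1, 69.5 and 73.0 in ♂M-3, and 103 and 102 in ZM-1. Here too ZM-1 was highest in both arrays, and the difference passed for ♂M-3 against ZM-1 (1.44-fold lower, adjusted p = 0.00310) and not for ♂M-1 (adjusted p = 0.0558). Ddx4, the Vasa RNA helicase that marks germ cells, had 171 and 151 in ♂M-1, 143 and 149 in ♂M-3, and 224 and 193 in ZM-1. It was lower in ♂M-3 than in ZM-1 by 1.42-fold (adjusted p = 0.00944), a result lost on leaving out ♂M-3 replicate 1 (adjusted p = 0.0640), and did not pass in ♂M-1 (adjusted p = 0.0723).

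Tdrd5, a tudor protein needed for transposon silencing, followed another pattern, with ♂M-3 as the low line. It measured 116 and 101 in ♂M-1, 65.0 and 72.6 in ♂M-3, and 105 and 97.5 in ZM-1. The ♂M-3 arrays were below all others, while those of ♂M-1 and ZM-1 overlapped. Tdrd5 was 1.47-fold lower in ♂M-3 than in ZM-1 (adjusted p = 0.00595) and 1.56-fold higher in ♂M-1 than in ♂M-3 (adjusted p = 0.00547). Both failed on leaving out ♂M-3 replicate 1 (adjusted p = 0.0527 and 0.0528). Tdrkh, a tudor protein of mitochondria that takes part in piRNA trimming, was dim, at 20.3 and 20.3 in ♂M-1, 22.8 and 21.4 in ♂M-3, and 25.2 and 26.0 in ZM-1. It passed in ♂M-1 against ZM-1 (adjusted p = 0.0474) and in no other comparison, and leaving out any 1 of the 6 arrays ended that call (adjusted p between 0.0787 and 0.192).

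The other 7 genes of this group passed in no comparison. Mael, which represses transposons, measured 247 ± 32.5 in ♂M-1 and 208 ± 0.398 in ♂M-3, against 235 ± 4.43 in ZM-1 (SD, n = 2 each). Mov10l1, the helicase that starts piRNA production, measured 54.2 ± 8.45 in ♂M-1 and 69.5 ± 1.84 in ♂M-3, against 71.4 ± 3.72 in ZM-1 (SD, n = 2 each). The remaining 5, Tdrd1, Tdrd6, Tdrd9, Stk31 and Asz1, had line means between 13.7 for Asz1 in ♂M-1 and 43.5 for Tdrd9 in ZM-1. Of the 13 genes of the group, 3 were lower in ♂M-1 relative to ZM-1, 5 lower in ♂M-3 than in ZM-1, and 1 higher in ♂M-1 than in ♂M-3. Of all genes, 2.53%, 7.2% and 3.22% passed in those directions.

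**Figure D3:**
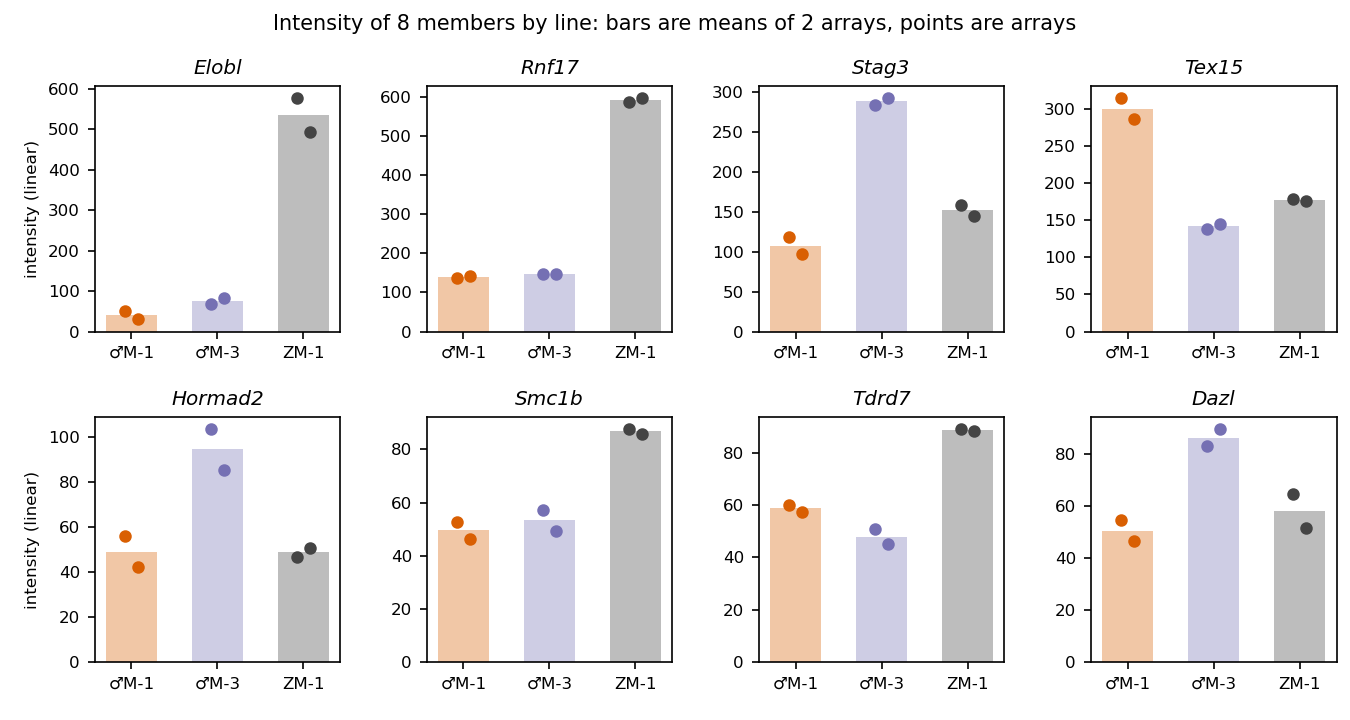
Intensity of 8 members in ♂M-1, ♂M-3 and ZM-1. Bars are the mean of 2 arrays and points are the arrays; each panel has its own linear axis from 0. Elobl, Rnf17, Smc1b and Tdrd7 are highest in ZM-1, Stag3, Hormad2 and Dazl in ♂M-3, and Tex15 in ♂M-1.

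The cohesin and recombination genes did not move as a block. Stag3, the germline STAG subunit of meiotic cohesin, measured 119 and 96.7 in ♂M-1, 285 and 293 in ♂M-3, and 159 and 145 in ZM-1. The 3 lines did not overlap, with ♂M-3 highest and ♂M-1 lowest. Stag3 was 2.68-fold lower in ♂M-1 than in ♂M-3 (log2 difference -1.42 ± 0.10, SE, adjusted p = 1.75e-04), and 1.89-fold higher in ♂M-3 than in ZM-1 (adjusted p = 6.49e-04). It was 1.42-fold lower in ♂M-1 relative to ZM-1 (adjusted p = 0.0310), a result lost on leaving out ♂M-1 replicate 2, either ♂M-3 array or either ZM-1 array (adjusted p between 0.0526 and 0.172).

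Smc1b, the meiotic form of the SMC1 cohesin subunit, ran the other way in ♂M-3. Its intensity was 52.7 and 46.4 in ♂M-1, 57.1 and 49.5 in ♂M-3, and 87.6 and 85.9 in ZM-1. Both ♂M lines lay below ZM-1 and overlapped each other. Smc1b was lower than in ZM-1 in both, by 1.74-fold in ♂M-1 (adjusted p = 0.00247) and by 1.62-fold in ♂M-3 (adjusted p = 0.00185). Dmc1, the recombinase that pairs strands of homologous chromosomes, measured 149 and 109 in ♂M-1, 104 and 112 in ♂M-3, and 195 and 169 in ZM-1. It was 1.68-fold lower in ♂M-3 than in ZM-1 (adjusted p = 0.00775), a result lost on leaving out ♂M-3 replicate 1 (adjusted p = 0.0547), and did not pass in ♂M-1 (adjusted p = 0.0796), whose arrays were far apart. Rec8, the kleisin subunit that replaces Rad21 in meiotic cohesin, had 97.5 ± 2.18 in ♂M-1 and 103 ± 1.78 in ♂M-3, against 106 ± 3.79 in ZM-1 (SD, n = 2 each) and passed in no comparison. Spo11, which makes the programmed breaks, lay between 9.46 and 12.4 in the 6 arrays.

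Genes of the chromosome axis and the synaptonemal complex also split by line. Hormad2, an axis protein that monitors unsynapsed chromosomes, measured 55.8 and 42.4 in ♂M-1, 103 and 85.2 in ♂M-3, and 46.5 and 50.9 in ZM-1. The ♂M-3 arrays were the highest, and those of ♂M-1 enclosed those of ZM-1. Hormad2 was 1.91-fold higher in ♂M-3 than in ZM-1 (log2 difference 0.93 ± 0.14, SE, adjusted p = 0.00247) and 1.91-fold lower in ♂M-1 than in ♂M-3 (adjusted p = 0.00484). Its relative Hormad1 did not pass, at 199.9 ± 27.8 in ♂M-1 and 216 ± 0.904 in ♂M-3, against 202 ± 15.5 in ZM-1 (SD, n = 2 each). A second, dimmer Hormad1 probe set read 41.4 and 41.6 in ♂M-1, 50.2 and 48.7 in ♂M-3, and 41.5 and 32.6 in ZM-1.

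The filament and lateral elements were lower in a ♂M line where they passed. Sycp3, a component of the lateral elements, measured 84.9 and 69.0 in ♂M-1, 101 and 102 in ♂M-3, and 129.7 and 120.0 in ZM-1. Its lines were ordered without overlap, and ♂M-1 was 1.62-fold lower than ZM-1 (adjusted p = 0.00683), a result lost on leaving out ♂M-1 replicate 2 (adjusted p = 0.0539). Sycp1, the transverse filament protein, measured 37.1 and 41.3 in ♂M-1, 25.2 and 29.3 in ♂M-3, and 42.7 and 60.7 in ZM-1. It was 1.84-fold lower in ♂M-3 than in ZM-1 (adjusted p = 0.00520), although the ZM-1 arrays differed widely. The ♂M-3 values were dim, near the lower quartile of the arrays. With other processing choices or an array left out, the log2 difference lay between -1.13 and -0.63. Sycp2, the partner of Sycp3, was very dim, with 10.5 and 10.7 in ♂M-1, 9.98 and 8.90 in ♂M-3, and 13.4 and 12.0 in ZM-1. It passed in ♂M-3 against ZM-1 (adjusted p = 0.0164), a result lost on leaving out either ♂M-3 replicate 2 or ZM-1 replicate 1 (adjusted p = 0.125 and 0.0707). Syce1, of the central element, had 63.4 and 66.5 in ♂M-1, 60.5 and 66.7 in ♂M-3, and 73.5 and 74.4 in ZM-1, and passed in no comparison.

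Of the 8 regulators of germ cell fate, 5 passed in at least 1 comparison, in both directions, where 18.5% of all genes did. Dazl, an RNA-binding protein that licenses germ cell development, measured 54.5 and 46.6 in ♂M-1, 82.8 and 89.5 in ♂M-3, and 64.4 and 51.4 in ZM-1. The ♂M-3 arrays were above all others, and ♂M-1 and ZM-1 overlapped. Dazl was 1.49-fold higher in ♂M-3 than in ZM-1 (adjusted p = 0.0130), a result lost on leaving out either ♂M-3 replicate 2 or ZM-1 replicate 2 (adjusted p = 0.0874 and 0.0562). It was 1.69-fold lower in ♂M-1 than in ♂M-3 (adjusted p = 0.00676), a result lost on leaving out ♂M-1 replicate 2 (adjusted p = 0.0849) or ♂M-3 replicate 2 (0.0587).

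Dmrt1, a DM-domain transcription factor of male germ cells and Sertoli cells, measured 130.3 and 127 in ♂M-1, 149 and 147 in ♂M-3, and 111 and 96.5 in ZM-1. It was 1.43-fold higher in ♂M-3 than in ZM-1 (adjusted p = 0.00460) and did not pass in ♂M-1 (adjusted p = 0.0795). No ♂M array overlapped ZM-1, and 9752 of all 19938 genes likewise did not overlap in ♂M-1 against ZM-1. Nanos3, an RNA-binding protein that protects primordial germ cells, measured 89.1 and 86.6 in ♂M-1, 64.5 and 77.7 in ♂M-3, and 57.5 and 62.0 in ZM-1. It was 1.46-fold higher in ♂M-1 relative to ZM-1 (adjusted p = 0.0173), a result lost on leaving out either ♂M-1 array or ZM-1 replicate 1 (adjusted p between 0.0646 and 0.111). Sohlh2, a helix-loop-helix factor of spermatogonia and oocytes, had 106 and 104 in ♂M-1, 144 and 158 in ♂M-3, and 139 and 131 in ZM-1. The ♂M-1 arrays were the lowest. Sohlh2 was 1.43-fold lower in ♂M-1 than in ♂M-3 (adjusted p = 0.00676), a result lost on leaving out ♂M-1 replicate 2 (adjusted p = 0.0722) or ♂M-3 replicate 2 (0.0676). It also passed in ♂M-1 against ZM-1 (1.28-fold lower, adjusted p = 0.0434), a result lost whichever of the 6 arrays was left out (adjusted p between 0.0642 and 0.201).

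Stra8, the retinoic acid-induced gene of meiotic entry, was dim and highest in ZM-1, with 29.4 and 29.2 in ♂M-1, 27.6 and 25.2 in ♂M-3, and 36.9 and 37.3 in ZM-1. It was 1.39-fold lower in ♂M-3 than in ZM-1 (adjusted p = 0.00410) and passed in ♂M-1 against ZM-1 (1.26-fold lower, adjusted p = 0.0480), where leaving out any 1 of the 6 arrays ended the call (adjusted p between 0.0719 and 0.197). Nanos2, Taf7l and Brdt passed in no comparison. Nanos2, a fate gene of male germ cells, lay between 24.5 and 27.9 in the 6 arrays, near their lower quartile. Taf7l, a germ cell form of a TFIID subunit, lay between 24.9 and 28.8, and Brdt, the testis bromodomain protein, between 42.5 and 54.9.

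Among the Tex genes, named for testis expression, Tex15 separated the lines. Tex15, needed for meiotic recombination and for piRNA-directed DNA methylation, measured 315 and 287 in ♂M-1, 138 and 146 in ♂M-3, and 178 and 176 in ZM-1. The lines did not overlap, and ♂M-1 was highest. Tex15 was 2.11-fold higher in ♂M-1 than in ♂M-3 (log2 difference 1.08 ± 0.080, SE, adjusted p = 1.75e-04) and 1.69-fold higher in ♂M-1 relative to ZM-1 (adjusted p = 0.00130). It passed as 1.25-fold lower in ♂M-3 than in ZM-1 (adjusted p = 0.0279), a result lost on leaving out either ♂M-3 array or either ZM-1 array (adjusted p between 0.0747 and 0.157) and after median centring. Tex14, a protein of intercellular bridges, had 327 ± 21.9 in ♂M-1 and 304 ± 0.183 in ♂M-3, against 312 ± 8.93 in ZM-1 (SD, n = 2 each). Tex14, Tex101 and the X-linked Tex11 passed in no comparison.

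Further genes of the same processes were counted from lists outside the 37. Of 27 measured meiosis genes in a list of 32, 0 were higher and 5 lower in ♂M-1 relative to ZM-1, 3 higher and 8 lower in ♂M-3 than in ZM-1, and 2 higher and 4 lower in ♂M-1 than in ♂M-3. These calls are 18.5%, 40.7% and 22.2% of the measured list, where 4.41%, 15.9% and 6.54% of all genes passed. Of those calls, 2 of 5, 5 of 11 and 2 of 6 held whichever array was left out. Rec114, a partner of the break machinery, measured 179 ± 12.9 in ♂M-1 and 147 ± 14.3 in ♂M-3, against 308 ± 23.1 in ZM-1 (SD, n = 2 each), 2.09-fold lower in ♂M-3 than in ZM-1 (adjusted p = 2.13e-04) and 1.72-fold lower in ♂M-1 (adjusted p = 0.00324). Hsf2bp, a protein of recombination complexes, was 1.67-fold higher in ♂M-3 than in ZM-1 (1105 ± 55.8 against 663 ± 39.7, SD, n = 2 each, adjusted p = 7.06e-04). Ccnb1ip1, a crossover regulator, was 1.75-fold lower in ♂M-1 than in ♂M-3 (307 ± 14.1 against 539 ± 10.2, SD, n = 2 each, adjusted p = 9.01e-04). Of 11 measured piRNA genes in a list of 12, 0 were higher and 1 lower in ♂M-1 relative to ZM-1, 4 higher and 0 lower in ♂M-3 than in ZM-1, and 0 higher and 2 lower in ♂M-1 than in ♂M-3. That is 9.09%, 36.4% and 18.2% of the measured list, against the same shares of all genes. Of these 7 calls, only that of Gtsf1 between ♂M-1 and ♂M-3 held whichever array was left out. Gtsf1, a piRNA pathway zinc finger protein, was dim, at 18.2 ± 0.707 in ♂M-1 and 28.3 ± 0.681 in ♂M-3 (SD, n = 2 each, adjusted p = 0.00310).

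Embryonic stem cells also use several genes of primordial germ cell specification. Of 10 such genes measured, 2 were higher and 0 lower in ♂M-1 relative to ZM-1, 5 higher and 1 lower in ♂M-3 than in ZM-1, and 1 higher and 2 lower in ♂M-1 than in ♂M-3. The shares of the list, 20%, 60% and 30%, stand beside 4.41%, 15.9% and 6.54% of all genes, so ♂M-3 against ZM-1 has the most calls in both. Of those calls, 0 of 2, 4 of 6 and 1 of 3 held whichever array was left out. Tfap2c, a transcription factor of primordial germ cells and trophoblast, measured 333 ± 20.3 in ♂M-1 and 349 ± 4.53 in ♂M-3, against 195 ± 26.0 in ZM-1 (SD, n = 2 each). It was 1.79-fold higher in ♂M-3 than in ZM-1 (adjusted p = 8.79e-04) and 1.70-fold higher in ♂M-1 (adjusted p = 0.00366, or 0.0552 without ♂M-1 replicate 2). The receptor gene Kit was 1.85-fold higher in ♂M-3 than in ZM-1 (1176 ± 39.5 against 636 ± 5.39, SD, n = 2 each, adjusted p = 4.94e-04). Spermatogonial markers gave 1 higher and 1 lower of 10 against ZM-1 in each ♂M line, 20% beside 4.41% and 15.9% of all genes. They gave 0 higher and 1 lower in ♂M-1 against ♂M-3, 10% beside 6.54%. Of these, 1 of 2, 0 of 2 and 0 of 1 held whichever array was left out, and Utf1, a chromatin factor, was lost whichever array was left out in both comparisons with ZM-1. Of 11 spermatid genes, 0 passed in limma in any comparison, and at an unadjusted p under 0.05 the counts were 0 in ♂M-1 against ZM-1 and 1 in each of the others. At that threshold 3981 of all 19938 genes passed in ♂M-1 against ZM-1, 5980 in ♂M-3 against ZM-1 and 3943 in ♂M-1 against ♂M-3. Of 12 genes in the oocyte list, Kitl, the gene of the Kit ligand, was lower in ♂M-1 against ♂M-3. That call was lost on leaving out any array of those lines. Zp3 alone was higher against ZM-1, in each ♂M line (adjusted p = 0.00138 for ♂M-1 and 2.49e-04 for ♂M-3). These calls are 8.33% of the list in each comparison. Of all genes, 4.41% passed in ♂M-1 against ZM-1, 15.9% in ♂M-3 against ZM-1 and 6.54% in ♂M-1 against ♂M-3. Zp3, a zona pellucida gene, measured 189 ± 0.575 in ♂M-1 and 205 ± 3.38 in ♂M-3, against 102 ± 13.6 in ZM-1 (SD, n = 2 each).

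Genes that hold germline promoters silent passed about as often as all genes. Of 25 measured repressors in a list of 26, 0 were higher and 1 lower in ♂M-1 relative to ZM-1, 1 higher and 3 lower in ♂M-3 than in ZM-1, and 2 higher and 0 lower in ♂M-1 than in ♂M-3. That is 4%, 16% and 8% of the list, where 4.41%, 15.9% and 6.54% of all genes passed. Of those calls, 0 of 1, 1 of 4 and 1 of 2 held whichever array was left out. Dnmt3a, a de novo DNA methyltransferase, measured 289 ± 8.90 in ♂M-1 and 262 ± 9.46 in ♂M-3, against 407 ± 0.450 in ZM-1 (SD, n = 2 each). It was 1.55-fold lower in ♂M-3 than in ZM-1 (adjusted p = 8.49e-04) and 1.41-fold lower in ♂M-1 (adjusted p = 0.00773), the second failing on leaving out either ♂M-1 array. Dnmt3b, the other main de novo enzyme, was 1.63-fold higher in ♂M-1 than in ♂M-3 (679 ± 95.9 against 415 ± 18.7, SD, n = 2 each, adjusted p = 0.00457). Mga, Max, E2f6, L3mbtl2 and Pcgf6 passed in no comparison, and neither did the 3 measured genes of DNA demethylation in a list of 4, of which 1 had an unadjusted p under 0.05 in each comparison. Of all 19938 genes, 3981, 5980 and 3943 did so, with the comparisons in the order above.

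**Figure D4:**
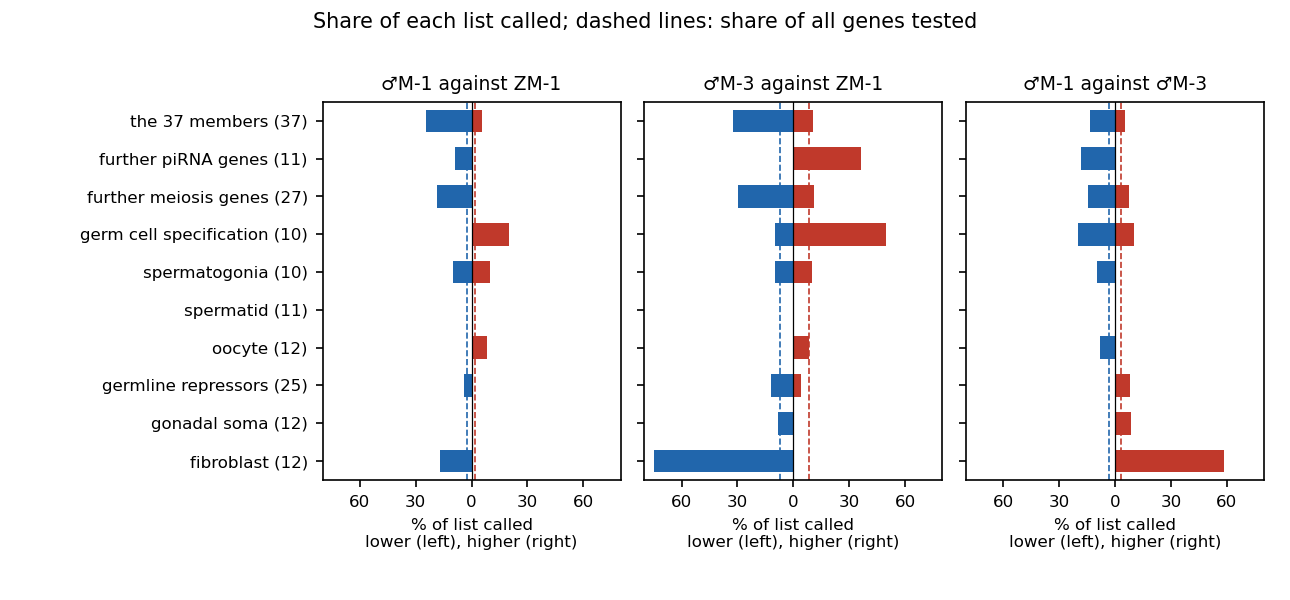
Share of each gene list that passed the test as lower (left, blue) or higher (right, red) in the first-named line, in percent of the measured members given in brackets. Dashed lines are the shares of all genes tested. The 37 members and the further meiosis genes lie mostly to the left in both comparisons with ZM-1, and the fibroblast list lies to the left in ♂M-3 against ZM-1.

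Markers of other cell types were set beside these results. No probe set of any gene was at 0 in any array, so a value above 0 does not show that a marker was expressed. In each line, 1 fibroblast marker and 2 markers of gonadal soma had means below the highest lower quartile. Of 12 fibroblast markers, 0 were higher and 2 lower in ♂M-1 relative to ZM-1, 0 higher and 9 lower in ♂M-3 than in ZM-1, and 7 higher and 0 lower in ♂M-1 than in ♂M-3. These calls are 16.7%, 75% and 58.3% of the list, where 4.41%, 15.9% and 6.54% of all genes passed. Of those calls, 1 of 2, 6 of 9 and 5 of 7 held whichever array was left out. Dcn, a matrix proteoglycan, measured 214 ± 32.6 in ♂M-1 and 104 ± 11.3 in ♂M-3, against 571 ± 35.3 in ZM-1 (SD, n = 2 each). Against ZM-1, Dcn was lower by 2.68-fold in ♂M-1 (adjusted p = 3.32e-04) and by 5.44-fold in ♂M-3 (adjusted p = 6.63e-06), and 2.03-fold higher in ♂M-1 than in ♂M-3 (adjusted p = 0.00151). Twist2, a mesenchymal transcription factor, was 2.23-fold lower in ♂M-3 than in ZM-1 (96.1 ± 2.90 against 216 ± 6.76, SD, n = 2 each, adjusted p = 4.27e-05). The summed intensity of the 12 markers was 13469 to 13704 in ♂M-1 and 12607 to 13016 in ♂M-3, against 13510 to 13552 in ZM-1. Brighter markers weigh most in such a sum. Of the 9 that were lower in ♂M-3, Col1a1 was the brightest in ZM-1, at 819 ± 11.8 (SD, n = 2). The sum therefore says little about those 9. Their part in the differences of the germline genes was not tested. Of 12 markers of gonadal soma, 0 passed in ♂M-1 against ZM-1 (2 at an unadjusted p under 0.05), 1 was lower in ♂M-3 than in ZM-1 and 1 higher in ♂M-1 than in ♂M-3, in both cases Fst. At that unadjusted threshold 3981 of all 19938 genes passed in ♂M-1 against ZM-1, 5980 in ♂M-3 against ZM-1 and 3943 in ♂M-1 against ♂M-3. By the adjusted test the calls were 0%, 8.33% and 8.33% of the list, beside 4.41%, 15.9% and 6.54% of all genes. The Fst calls were lost on leaving out ♂M-3 replicate 1 or ZM-1 replicate 1 in ♂M-3 against ZM-1 (adjusted p between 0.0541 and 0.0624) and either ♂M-1 array or ♂M-3 replicate 1 in ♂M-1 against ♂M-3 (adjusted p between 0.114 and 0.233). The sums of these markers were 907 to 936 in ♂M-1 and 779 to 841 in ♂M-3, against 953 to 956 in ZM-1. The 3 measured markers of 2-cell-like cells in a list of 8 passed in no comparison, with 1 at an unadjusted p under 0.05 in ♂M-1 against ZM-1 and 0 in the others. Of the 8 pluripotency markers, 0 passed in ♂M-1 against ZM-1 (1 at an unadjusted p under 0.05), 3 were higher in ♂M-3 than in ZM-1 and 2 lower in ♂M-1 than in ♂M-3. That is 0%, 37.5% and 25% of the list, where 4.41%, 15.9% and 6.54% of all genes passed. Only the calls of Zfp42, 1 of 3 and 1 of 2, held whichever array was left out. Zfp42 was the largest of these, at 671 ± 3.77 in ♂M-3 and 272 ± 12.0 in ZM-1 (SD, n = 2 each).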

How the data were processed

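Expression was measured on 6 arrays, 2 biological repeats of each of the lines ♂M-1, ♂M-3 and ZM-1. The authors deposited a linear intensity for each of 35556 probe sets in every array. Per the submitters' processing notes GCOS 1.4 was used; how background was corrected and arrays normalized is not given in the sources used here. Symbols came from the platform annotation: 21789 probe sets carried 1 symbol, 1621 several, and 12146 were not in that table. Gene order, synonyms and promoter windows came from RefSeq for GRCm38.p6.

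On log2(intensity + 1), limma 3.58.1 (R 4.3.3) estimated 1 mean for each line over the 6 arrays together (3 residual and 6.01 prior degrees of freedom), two-sided, with Benjamini-Hochberg adjustment over 19938 genes. The fit was tested on simulated data, in which 200 of 19938 genes differed by 1 on the log2 scale in ♂M-1 against ZM-1. It recovered 91% of them, with 7 false calls. Smaller differences, such as many of those described here, were not simulated. The labels call the repeats biological and do not say how they were separated, so p-values reflect no more than the spread of these repeats, and precision is limited by the number of arrays. The members and lists were chosen with earlier results of these data known. Values of every array are given for members that passed in at least 1 comparison, and line means or ranges for the others. Of each further list, up to 4 genes that passed with the largest difference could be named per comparison, and pluripotency markers could be named whatever their test. Promoters are shown for members that passed in at least 2 comparisons, by size of difference, where 1 window was listed. Alternatives covered the offset, normalization, dim genes, probe set choice, the variance trend, a replicate block and each array left out. An array left out lowers the residual degrees of freedom of every comparison, so a lost call need not mean that the result rested on that array. For Tdrkh, the log2 difference of ♂M-1 against ZM-1 was -0.32 in the main fit and also without either ♂M-3 array.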

Additional observations from a re-analysis of the deposited data

How the results depend on the processing

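The 37 members gave 34 calls over the 3 comparisons, and 16 of them held under every one of the 15 alternatives in which the gene was tested. These were Elobl, Rnf17 and Smc1b in both ♂M lines against ZM-1, Stag3 in ♂M-3 against ZM-1 and in ♂M-1 against ♂M-3, Tex15 in ♂M-1 against ZM-1 and against ♂M-3, and Tdrd7, Hormad2, Piwil2, Sycp1, Stra8 and Dmrt1 in ♂M-3 against ZM-1. The other 18 calls were lost under at least 1 alternative, none reversed, and 10 of 77 results that did not pass did so under at least 1. When every probe set was tested, 17 of the 34 calls were lost, and the count of members called was 4 in ♂M-1 against ZM-1 and 2 in ♂M-1 against ♂M-3; more features enter the adjustment there. Among genes above the 50th percentile, where 13 members were tested, 8 passed in ♂M-3 against ZM-1. Leaving out each array in turn gave between 4 and 9 members in ♂M-1 against ZM-1, between 12 and 17 in ♂M-3 against ZM-1, and between 4 and 9 in ♂M-1 against ♂M-3. With the replicate block, 8 members passed in ♂M-1 against ZM-1, 16 in ♂M-3 against ZM-1 and 8 in ♂M-1 against ♂M-3. Across genes, the differences between replicates 1 and 2 correlated at -0.035 between ♂M-1 and ♂M-3, 0.067 between ♂M-1 and ZM-1, and -0.10 between ♂M-3 and ZM-1. These values show no strong effect shared by replicates of the same number. They cannot tell whether such replicates were handled together.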
